A study of Homo sapiens with 10 samples.

Results

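ReNcell VM cells, immortalised progenitors of human neural tissue, were grown as neurospheres and treated while they differentiated, and gene expression after treatment with a mixture (Mix) was compared with that after treatment with DPP across all genes. The comparison used 4 of the 10 RNA sequencing libraries of the study, 2 Mix libraries and 2 DPP libraries, chosen by their labelled treatment. Both treatments were labelled 100 µM, and the other 6 libraries were DEP (diethyl phthalate) at 100 µM, DProP at 100 µM and a vehicle control of 0.1% DMSO, 2 of each. All groups consisted of the same cell line, cultured for 6 days in differentiation medium, and each library pooled the RNA of 6 neurospheres. The study concerns short-chain phthalates, esters used as plasticisers and in personal care products, singly and combined. The labels give neither the components of Mix nor whether 100 µM was its total or the concentration of each component, and they do not spell out DPP, so no structure is given here for it. No source used here states whether the treated cultures also held DMSO. The cells are a single immortalised line rather than primary tissue, and no label ties the 2 libraries of a group to independent cultures, so that the p-values reflect library-to-library spread, which may be technical.

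Neural progenitors that leave the cell cycle switch on proneural and early neuronal transcription factors in a cascade, from the neurogenins to the NEUROD, NHLH, EBF and MYT families. These factors activate the cytoskeletal and synaptic genes of neurons, while Notch signalling and growth factors such as EGF hold other cells in the progenitor state or lead them to glia. Damaged or stressed cells of any type use separate programmes, among them the p53, ATF4 and NFE2L2 (NRF2) responses, the metallothioneins and the immediate early genes. The comparison of Mix with DPP asks on which of these programmes the combined treatment and the single compound differed.

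The Mix libraries held 72973100 and 61682236 counts and the DPP libraries 70127862 and 64635092 counts, and the 10 libraries ran from 57222381 to 72973100. On the first principal component, which held 47.5% of the variance, the Mix libraries lay at -6.28 and -7.96, the DPP libraries at 16.4 and 26.1, and the vehicle libraries at -30.9 and -32.1. DPP replicate 2 was therefore the library farthest from vehicle. Mitochondrially encoded transcripts took 0.0996% and 0.0969% of counts in Mix, 0.0867% and 0.107% in DPP, and 0.0255% and 0.0343% in vehicle. The vehicle libraries also had fewer detected genes (21603 and 21500) than the Mix libraries (23371 and 22905) and the DPP libraries (23375 and 23180), and the part of this difference in any value set against vehicle was not tested.

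Mix and DPP differed across a broad set of genes, with many neuronal genes higher in Mix and many stress, growth factor and proliferation genes lower. Of 19465 tested genes, 3359 (17.3%) passed an adjusted p of 0.05 in edgeR's quasi-likelihood test with Benjamini-Hochberg adjustment. Of these, 2032 (10.4% of tested genes) were higher in Mix and 1327 (6.82%) were lower. Most of the differences were small: the median size among called genes was 0.42 on the log2 scale, and 391 higher and 185 lower genes differed by more than 1. The count depends on the libraries, since it was 1541 without DPP replicate 2, 1918 without Mix replicate 1 and 1952 without Mix replicate 2. In total 1124 genes, 758 higher and 366 lower, were called in the same direction under every alternative tried other than a 2-fold minimum. The 95% interval of 8141 of the 16106 genes that were not called (50.6%) lay within 0.5 of no difference on the log2 scale, and the remaining uncalled genes allow larger differences in either direction. In bulk RNA, fewer cells of a type and less RNA per cell cannot be told apart, and this holds for every gene group that follows. The shares of all tested genes, 10.4% higher and 6.82% lower, are the background for the counts of every gene list below.

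**Figure D1:**
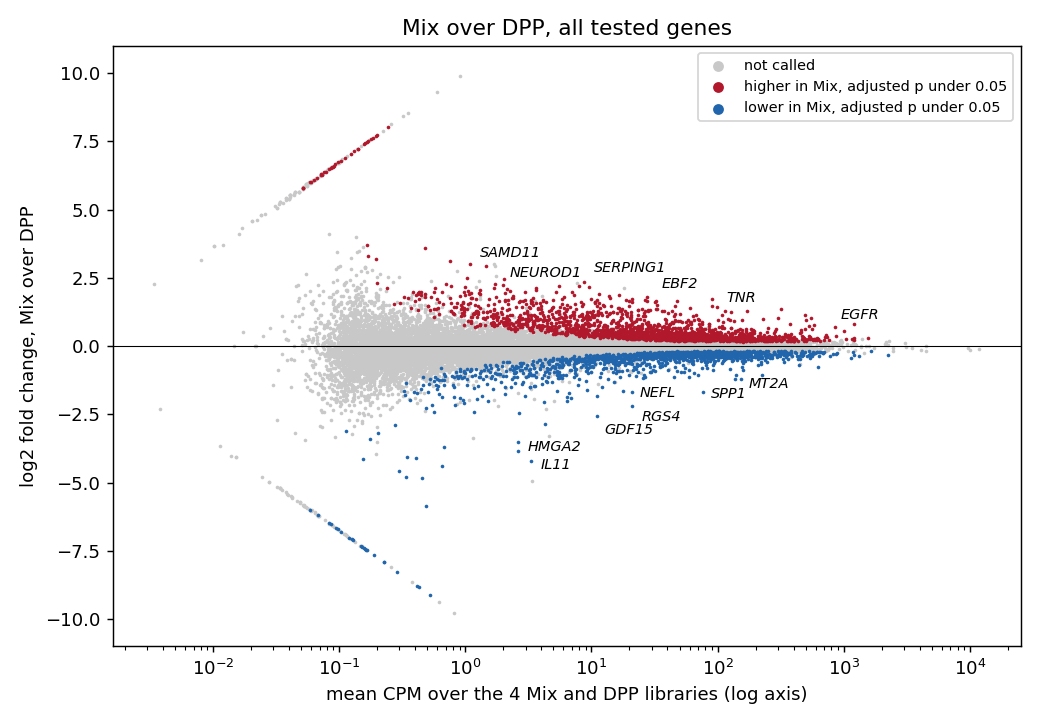
Log2 fold change of Mix over DPP (vertical axis) against the mean CPM of the 4 libraries (horizontal, log axis) for the tested genes, in red where higher in Mix, in blue where lower and in grey where not called. The 2032 higher and 1327 lower genes lie on both sides of 0, and the 2 diagonal streaks are genes at 0 in both libraries of one group, whose fitted fold changes depend on a prior count.

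The other comparisons in the same fit give the scale of this difference. The share of genes called was 3.86% between Mix and DEP (2.85% higher and 1.02% lower in Mix) and 6.89% between Mix and DProP (4.36% and 2.53%), both below the 17.3% between Mix and DPP. Among the single compounds it was 2.93% between DEP and DPP, 0.262% between DProP and DPP and 0.524% between DEP and DProP. Against vehicle it was 20.4% for Mix (9.71% higher and 10.7% lower), 36.2% for DPP (16.7% higher and 19.5% lower), 23.6% for DEP and 32.2% for DProP. These comparisons share libraries with one another, and no test was made of the differences between their counts.

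The 12 largest increases with at least 1 CPM on average were SAMD11, BPIFB2, SERPINA3, REM2, SERPING1, GABRQ, KCNE5, ROR2, NEUROD1, P2RX3, ZNF536 and SPAG6. SERPING1 (NCBI gene 710, chr11:57597685-57614848 in RefSeq on GRCh38.p14, as for the coordinates of other genes) encodes the C1 inhibitor, which restrains the complement cascade, and had 15 and 14 CPM in the Mix libraries, against 3.46 and 2.18 CPM in the DPP libraries. Its log2 fold change was 2.36 ± 0.22 (SE), adjusted p = 6.68e-05, and both vehicle libraries, at 7.76 and 6.70 CPM, lay between the Mix and DPP libraries. NEUROD1 (NCBI gene 4760, chr2:181668295-181680517), a transcription factor of early neurons, had 13.5 and 12.6 CPM in Mix, against 3.10 and 2.60 CPM in DPP, a log2 fold change of 2.19 ± 0.17 (SE), adjusted p = 2.04e-05. The vehicle libraries had 14.1 and 11.8 CPM, so the Mix values lay within the vehicle range and the DPP values below it. P2RX3, an ATP-gated ion channel, had 14.2 and 16.9 CPM in Mix, against 4.16 and 2.70 CPM in DPP (log2 fold change 2.18 ± 0.19 (SE), adjusted p = 4.01e-05). ZNF536, a zinc finger gene expressed in neurons, had 5.62 and 6.26 CPM in Mix, against 1.51 and 1.18 CPM in DPP (log2 fold change 2.14 ± 0.21 (SE), adjusted p = 6.63e-05). SAMD11, the largest of these increases, was weakly expressed, with 1.79 and 2.09 CPM in Mix, against 0.363 and 0.106 CPM in DPP (log2 fold change 3.02 ± 0.39 (SE), adjusted p = 0.000394). In DPP, P2RX3 (-2.30), ZNF536 (-1.84) and SAMD11 (-3.75) were below vehicle on the log2 scale, each past the threshold. In Mix none of them differed from vehicle at the threshold (-0.12, 0.30 and -0.74). Non-overlap of the groups was a condition of the ranking and adds nothing for single genes. It held for 29.4% of tested genes in this direction and 29.8% in the other. For SERPING1, NEUROD1, P2RX3, ZNF536 and SAMD11 the call held in every alternative tried. GABRQ, a GABA receptor subunit, and ROR2, a Wnt receptor, lost their calls without Mix replicate 2.

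The largest decreases with at least 1 CPM on average, as far as described here, were IL11, P3R3URF-PIK3R3, HMGA2, GDF15, DKK1, ETS1, RGS4, SLC7A5P1, CCNE2, DUSP4 and PKMYT1. HMGA2 (NCBI gene 8091, chr12:65824460-65966291), a chromatin protein of proliferating fetal cells, had 0.464 and 0.366 CPM in the Mix libraries, against 3.66 and 5.91 CPM in the DPP libraries. Its log2 fold change was -3.51 ± 0.28 (SE), adjusted p = 2.18e-05, and the vehicle libraries had 0.923 and 0.882 CPM. GDF15 (NCBI gene 9518, chr19:18386158-18389176), a secreted hormone that stressed cells release, had 2.62 and 3.78 CPM in Mix, against 15.9 and 22.0 CPM in DPP (log2 fold change -2.57 ± 0.21 (SE), adjusted p = 3.8e-05). The vehicle libraries had 2.08 and 1.46 CPM, so that GDF15 was above vehicle in both treatments, by 0.84 (adjusted p = 0.0245) in Mix and 3.41 (adjusted p = 3.16e-06) in DPP. RGS4, a regulator of G protein signalling, had 6.4 and 8.41 CPM in Mix, against 31.8 and 36.6 CPM in DPP (log2 fold change -2.21 ± 0.17 (SE), adjusted p = 2.18e-05). DKK1, a secreted Wnt inhibitor, had 0.996 and 0.637 CPM in Mix, against 3.54 and 5.56 CPM in DPP (log2 fold change -2.47 ± 0.28 (SE), adjusted p = 0.000194). ETS1, a transcription factor downstream of MAP kinases, had 0.341 and 0.398 CPM in Mix, against 1.91 and 2.01 CPM in DPP (log2 fold change -2.41 ± 0.32 (SE), adjusted p = 0.000484). PKMYT1, a kinase that holds back mitosis, had 0.478 and 0.542 CPM in Mix, against 1.73 and 2.18 CPM in DPP (log2 fold change -1.94 ± 0.30 (SE), adjusted p = 0.00115). In all 6 the DPP libraries lay above both Mix libraries, as the ranking required. Their calls held in every alternative tried, except that PKMYT1 did not pass a 2-fold minimum. P3R3URF-PIK3R3, a readthrough transcript, and SLC7A5P1, a pseudogene, share sequence with other genes and are uncertain, and their calls were lost under several alternatives. CCNE2, cyclin E2, lost its call without Mix replicate 2 or DPP replicate 2.

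**Figure D2:**
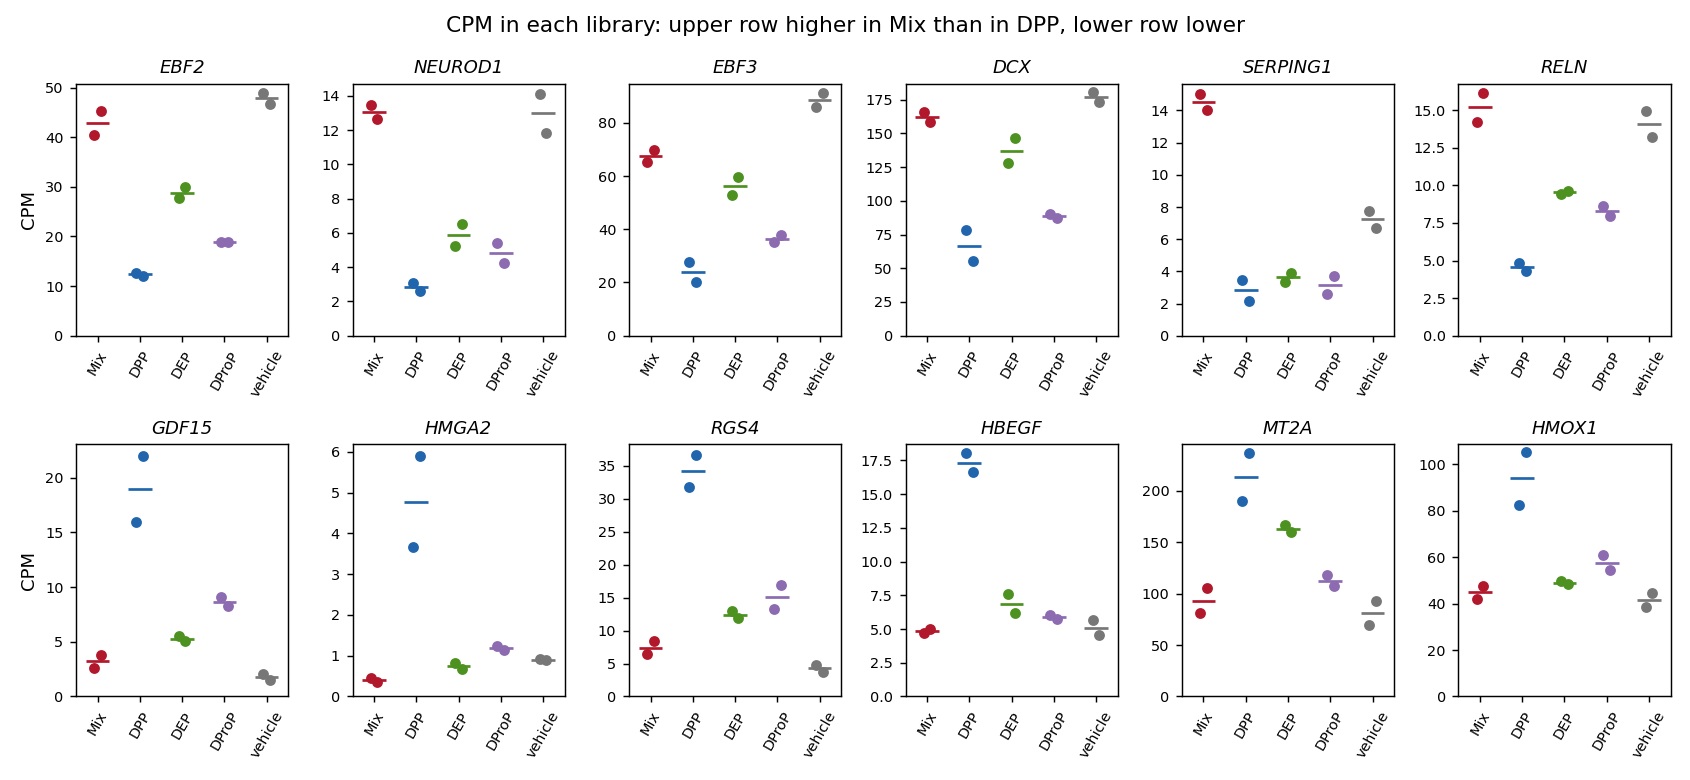
CPM (vertical axis, linear from 0) of 12 genes in each library of Mix, DPP, DEP, DProP and vehicle, with points for the 2 libraries and a bar at their mean. In the upper row the Mix libraries lie above the DPP libraries, as for EBF2 (40.4 and 45.3 against 12.7 and 12.1), and in the lower row below them, as for GDF15 (2.62 and 3.78 against 15.9 and 22.0).

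Proneural and early neuronal transcription factors were, of the 43 gene lists described, the one with the largest share of members higher in Mix. Of 16 tested members 12 were higher and none lower, against 10.4% and 6.82% of all tested genes, and their median log2 fold change was 1.58, against -0.007 over all tested genes. EBF2, a helix-loop-helix factor of newborn neurons, had 40.4 and 45.3 CPM in the Mix libraries, against 12.7 and 12.1 CPM in the DPP libraries (log2 fold change 1.79 ± 0.083 (SE), adjusted p = 1.24e-06). EBF3, its relative, had 65.3 and 69.7 CPM in Mix, against 27.8 and 20.3 CPM in DPP (log2 fold change 1.49 ± 0.12 (SE), adjusted p = 5.35e-05). ST18, a zinc finger factor of the MYT family, had 49.4 and 50.1 CPM in Mix, against 18.1 and 13.2 CPM in DPP (log2 fold change 1.67 ± 0.13 (SE), adjusted p = 3.82e-05). All 4 libraries of each separated by treatment. The factors NHLH1 (1.66), NHLH2 (1.69), MYT1 (1.89), INSM1 (1.33), NEUROD4 (1.71), NEUROG1 (1.89) and NEUROD2 (1.33) were also higher on the log2 scale. NEUROG1 had 10.2 and 12.9 CPM in Mix, against 4.44 and 1.77 CPM in DPP, its DPP libraries differed widely from each other, and its call was lost without either Mix replicate, with the replicate block and in the fit of the 4 libraries. NEUROD4 lost its call without DPP replicate 2, and NEUROD2 without Mix replicate 2 or DPP replicate 2. These 7 factors were named after their values were seen. The count stayed between 9 and 13 when any 1 of the 4 libraries was left out. Against vehicle the median of the list was -0.32 in Mix and -1.92 in DPP, and it was -0.75 in DEP and -1.26 in DProP.

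Genes of the neuronal cytoskeleton and membrane had the next largest share of higher members among the lists. Of 28 tested neuronal markers 17 were higher in Mix and 1 was lower, with a median of 0.44. DCX, a microtubule protein of migrating young neurons, had 166 and 159 CPM in the Mix libraries, against 78.3 and 55.3 CPM in the DPP libraries (log2 fold change 1.28 ± 0.13 (SE), adjusted p = 0.000307). TUBB3, neuronal tubulin, had 449.9 and 505 CPM in Mix, against 315 and 234 CPM in DPP (log2 fold change 0.80 ± 0.13 (SE), adjusted p = 0.00345). MAP2, a dendritic microtubule protein, had 809.8 and 768 CPM in Mix, against 621 and 636 CPM in DPP (log2 fold change 0.33 ± 0.06 (SE), adjusted p = 0.00324). The size thus differed widely within the list, and the RNA-binding proteins ELAVL3 (1.37) and ELAVL4 (1.91), the endosomal protein NSG1 (1.57) and the filament gene INA (0.96) were among the larger log2 fold changes. NEFL, the light neurofilament subunit, went the other way, with 9.42 and 10.3 CPM in Mix, against 29.6 and 34.3 CPM in DPP. Its log2 fold change was -1.70 ± 0.10 (SE), adjusted p = 5.31e-06, and the vehicle libraries, at 18.7 and 17.6 CPM, lay between the groups. The count of higher members was 15 or 16 without any 1 library. ELAVL4 was named after its values were seen.

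Among synaptic genes 11 of 31 were higher in Mix and 2 were lower, with a median of 0.30, and the count of higher members was 7 without DPP replicate 2. SNAP25, which drives vesicle fusion, had 13.7 and 15.6 CPM in Mix, against 8.58 and 6.62 CPM in DPP (log2 fold change 0.95 ± 0.14 (SE), adjusted p = 0.000861). NLGN3, a postsynaptic adhesion protein, had 248 and 254 CPM in Mix, against 185 and 178 CPM in DPP (log2 fold change 0.46 ± 0.067 (SE), adjusted p = 0.000788). GRIA2, an AMPA receptor subunit, had 71.0 and 73.2 CPM in Mix, against 51.4 and 52.9 CPM in DPP (log2 fold change 0.47 ± 0.072 (SE), adjusted p = 0.0012). The 2 lower members were HOMER1 (-0.43, adjusted p = 0.00691), a scaffold of glutamate receptors, and the kainate receptor subunit GRIK2 (-0.41, adjusted p = 0.00973), and the number of lower members was 1 without Mix replicate 1 or 2 and 0 without DPP replicate 2. SYT4, a vesicle protein of the synaptotagmin family, had 2.59 and 1.45 CPM in Mix, against 0.544 and 0.515 CPM in DPP (log2 fold change 1.93 ± 0.31 (SE), adjusted p = 0.00168). SHANK2, a postsynaptic scaffold, was scarce, with 0.409 and 0.605 CPM in Mix, against 0.126 and 0.167 CPM in DPP, and its call (log2 fold change 1.78, adjusted p = 0.0304) was lost without any 1 library. HOMER1, GRIK2, SYT4 and SHANK2 were named after their values were seen.

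Several progenitor transcription factors were higher in Mix, while the most abundant progenitor markers lay close together. Of 21 tested markers 10 were higher in Mix and 2 were lower, with a median of 0.21. The count of higher markers was 5 without Mix replicate 2 and 3 without DPP replicate 2. It was 7 with scaling by relative log expression or library size alone, and 7 with no filter. The fit of the 4 libraries and the fit without vehicle also gave 7, while DESeq2 gave 12. SOX1, a transcription factor of early neural progenitors, had 21.2 and 20.5 CPM in Mix, against 9.84 and 7.90 CPM in DPP (log2 fold change 1.23 ± 0.14 (SE), adjusted p = 0.000181). PROM1, a membrane protein of progenitors, had 25.1 and 22.8 CPM in Mix, against 10.1 and 8.09 CPM in DPP (log2 fold change 1.39 ± 0.15 (SE), adjusted p = 0.000191). SOX3, a relative of SOX1, had 10.5 and 11.1 CPM in Mix, against 4.87 and 3.54 CPM in DPP (log2 fold change 1.36 ± 0.16 (SE), adjusted p = 0.000234). SOX2, the abundant progenitor factor, had 693 and 716 CPM in Mix, against 653 and 593 CPM in DPP, a log2 fold change of 0.18 that was not called (adjusted p = 0.0805, 95% interval 0.036 to 0.32). VIM, an intermediate filament, had 1296 and 1466 CPM in Mix, against 1402 and 1338 CPM in DPP (log2 fold change 0.011, adjusted p = 0.935, 95% interval -0.14 to 0.16). NES, the progenitor filament nestin, was lower by a small margin (-0.20, adjusted p = 0.0348), a call lost without any 1 library. CDH2, which encodes N-cadherin, was lower with 454 and 457 CPM in Mix, against 602 and 644 CPM in DPP (log2 fold change -0.45 ± 0.055 (SE), adjusted p = 0.000273).

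Astrocyte markers moved in both directions. Of 20 tested markers 5 were higher in Mix and 3 were lower, with a median of 0.17, and without DPP replicate 2 only 2 were higher. The summed CPM of the list was 9577 and 9112 in Mix, 9246 and 8422 in DPP. SLC1A3, a glutamate transporter, had 556 and 537 CPM in Mix, against 353 and 379 CPM in DPP (log2 fold change 0.58 ± 0.08 (SE), adjusted p = 0.000648). CD44, a hyaluronan receptor, had 202 and 193 CPM in Mix, against 269 and 288 CPM in DPP (log2 fold change -0.50 ± 0.066 (SE), adjusted p = 0.000505), and GLUL, glutamine synthetase, had a log2 fold change of -0.40 ± 0.07 (SE), adjusted p = 0.00253. GFAP, the astrocyte filament, had 2459 and 2394 CPM in Mix, against 2755 and 2314 CPM in DPP, and its groups overlapped (log2 fold change -0.063, adjusted p = 0.633, 95% interval -0.23 to 0.11). The GFAP interval excludes a difference of 0.5 on the log2 scale in either direction. AQP4, the water channel of astrocytes, and SLC1A2, a glutamate transporter, were named after their values were seen. AQP4 had 573 and 337 CPM in Mix, against 187 and 168 CPM in DPP (log2 fold change 1.36 ± 0.24 (SE), adjusted p = 0.014), and SLC1A2 had 66.6 and 38.9 CPM in Mix, against 21.4 and 22.2 CPM in DPP (log2 fold change 1.28 ± 0.22 (SE), adjusted p = 0.00723). In both genes Mix replicate 1 stood above Mix replicate 2, and both calls were lost without DPP replicate 1, without DPP replicate 2 and in the fit of the 4 libraries alone, where 2 members of the list were higher.

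For the oligodendrocyte lineage 4 of 10 tested members were higher in Mix, among them SOX8 (0.65), CSPG4 (0.51) and PDGFRA (0.92), and none was lower. SOX8 had 43.1 and 50.8 CPM in Mix, against 31.9 and 27.8 CPM in DPP, and its call held in every alternative bar the 2-fold minimum. The calls of CSPG4 and PDGFRA were lost when any 1 of the 4 libraries was left out, and 2 members of the list were called without Mix replicate 1, Mix replicate 2 or DPP replicate 2. OLIG2 was scarce, with 0.218 and 0.255 CPM in Mix, against 0.0977 and 0.167 CPM in DPP, and its interval was wide (log2 fold change 0.84, adjusted p = 0.332, 95% interval -0.36 to 2.03). The myelin gene MAG and the lineage factor NKX2-2 had 0 counts in all 10 libraries.

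Markers of mesenchymal, endothelial and microglial cells were weak. Of 14 tested mesenchymal and smooth muscle genes 3 were higher in Mix (MYL9, TAGLN and COL1A1), with a median of 0.32. TAGLN, an actin-binding protein of smooth muscle, had 5.19 and 6.17 CPM in Mix, against 3.78 and 3.24 CPM in DPP (log2 fold change 0.69 ± 0.13 (SE), adjusted p = 0.00402). The vehicle libraries had 21.2 and 20.6 CPM of TAGLN, above both treatments (log2 fold change over vehicle -1.88 in Mix and -2.57 in DPP). Against vehicle, 8 of the 14 genes were called lower and 0 higher in Mix, and 7 lower and 1 higher in DPP. The summed CPM of the list was 188 and 220.1 in Mix, 213 and 202 in DPP, so the groups overlapped. Of 8 endothelial markers, with summed CPM of 29.6 and 29.8 in Mix and 18.4 and 10.01 in DPP, only CLDN5, a tight junction protein, was called (1.28, adjusted p = 0.0313), and its call was lost without Mix replicate 1 or 2, with no filter, in the fits of the 4 libraries and without vehicle, and with the replicate block, while 3 of the list were called without DPP replicate 1. Neural crest and Schwann cell markers were more abundant, with summed CPM of 702 and 703 in Mix and 638 and 565 in DPP. Of 8 tested, 2 were higher and 1 was lower. ERBB3, a neuregulin receptor, was higher by 1.43 ± 0.19 (SE), adjusted p = 0.000535. The lower member was the more abundant PMP22, with 93.3 and 85.5 CPM in Mix, against 135 and 130 CPM in DPP (log2 fold change -0.56 ± 0.069 (SE), adjusted p = 0.000285). The part of these cell types in the other results was not tested. The microglial genes AIF1, PTPRC, TYROBP and C1QA had 0 counts in every library, and CD68, the only member of that list with enough counts, had 6.10 and 7.68 CPM in Mix, against 7.34 and 7.06 CPM in DPP (log2 fold change -0.065, adjusted p = 0.822).

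**Figure D3:**
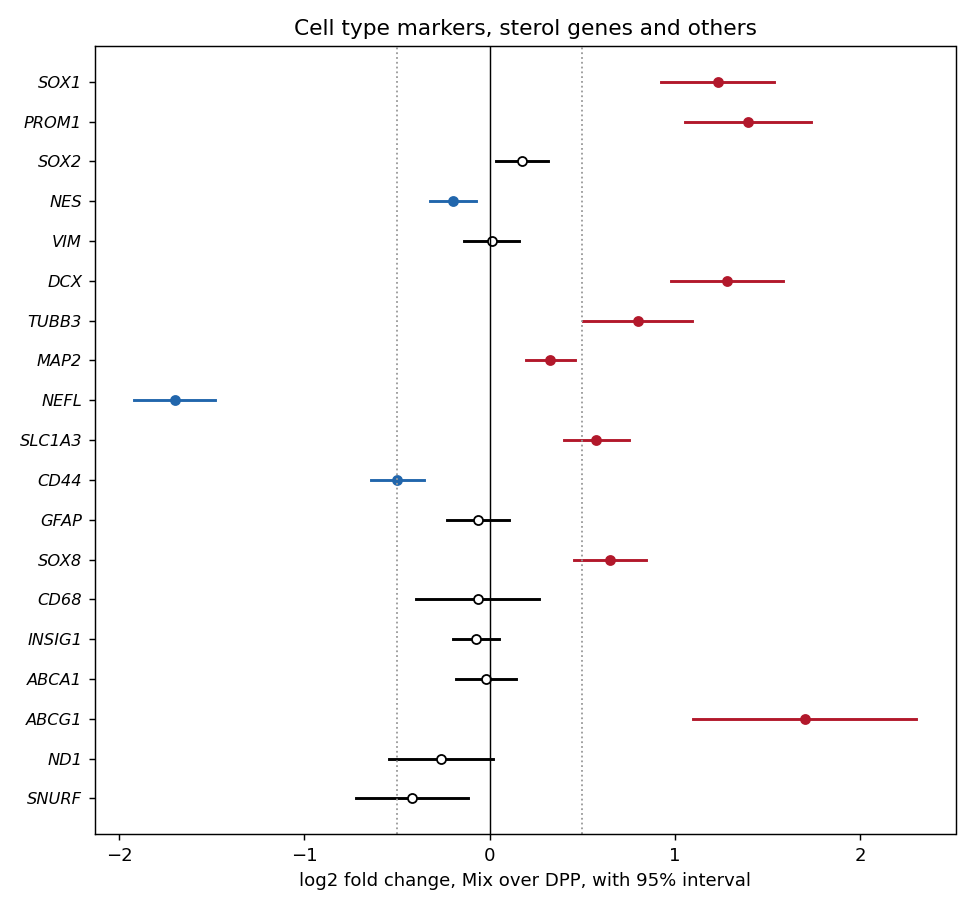
Log2 fold change of Mix over DPP (horizontal axis) with 95% intervals for 19 markers and metabolic genes, filled where called (red higher, blue lower) and open where not called, with dotted lines at 0.5 to each side of 0. The intervals of SOX2, VIM, GFAP, INSIG1 and ABCA1 lie inside the dotted lines, while DCX (1.28) lies to the right and NEFL (-1.70) to the left of them.

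Matrix, adhesion and guidance genes were called in both directions in similar numbers. Of 41 tested matrix, adhesion and migration genes 12 were higher in Mix and 11 lower (8 higher without Mix replicate 1 and 7 lower without DPP replicate 2), with a median of -0.094. The higher ones included secreted components of the neural matrix. RELN, the secreted glycoprotein reelin that guides neuronal migration, had 14.2 and 16.2 CPM in Mix, against 4.83 and 4.3 CPM in DPP (log2 fold change 1.73 ± 0.12 (SE), adjusted p = 1.26e-05). NCAN, the proteoglycan neurocan, had 691 and 797 CPM in Mix, against 406 and 315 CPM in DPP (log2 fold change 1.05 ± 0.11 (SE), adjusted p = 0.000162), and BCAN, brevican, had a log2 fold change of 0.81 ± 0.089 (SE), adjusted p = 0.000162. SPP1, the secreted phosphoprotein osteopontin, was lower, with 31.4 and 41.9 CPM in Mix, against 112 and 120.0 CPM in DPP (log2 fold change -1.67 ± 0.16 (SE), adjusted p = 0.000222). Of 37 axon guidance genes 8 were higher and 7 lower. ROBO3, a receptor of commissural axons, had 229 and 258 CPM in Mix, against 117 and 83.9 CPM in DPP (log2 fold change 1.28 ± 0.16 (SE), adjusted p = 0.0013). EFNB2, an ephrin ligand, had 119 and 123 CPM in Mix, against 153 and 177 CPM in DPP (log2 fold change -0.45 ± 0.068 (SE), adjusted p = 0.00111). The guidance counts were 5 higher without DPP replicate 2, and 3, 4 and 4 lower without Mix replicate 1, Mix replicate 2 and DPP replicate 2.

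Notch and Wnt genes showed no common direction. Of 19 Notch genes 6 were higher in Mix and 4 lower, with a median of 0.21, and only 2 were higher without Mix replicate 2 or DPP replicate 2, while 0 were lower without Mix replicate 1 or DPP replicate 2 and 2 without Mix replicate 2. The higher count was also 2 with scaling by library size alone, 2 in the fit of the 4 libraries (with 1 lower) and 3 with no filter or with the replicate block. MFNG, a glycosyltransferase that modifies Notch, had 12.6 and 12 CPM in Mix, against 5.37 and 3.48 CPM in DPP (log2 fold change 1.47 ± 0.18 (SE), adjusted p = 0.000284), and DLL3, a divergent ligand found in newborn neurons, had 14.3 and 19.2 CPM in Mix, against 8.66 and 5.80 CPM in DPP (log2 fold change 1.21 ± 0.21 (SE), adjusted p = 0.004). Among 19 Wnt pathway targets and inhibitors 4 were higher and 4 lower, and the lower count was 2 without Mix replicate 1, Mix replicate 2 or DPP replicate 2. Besides DKK1, which was lower, the inhibitors APCDD1 (0.74), SFRP1 (0.63) and NKD1 (1.14) were higher on the log2 scale.

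Nearly all immediate early genes that were called were lower in Mix. Of 29 tested members 17 were lower and 1 was higher, against 6.82% and 10.4% of all tested genes, with a median of -0.52, and 11 and 10 were lower without Mix replicate 1 and DPP replicate 2. These genes encode transcription factors and phosphatases that growth factors and stress switch on within minutes. FOSL1, a subunit of AP-1, had 2.50 and 3.07 CPM in the Mix libraries, against 8.83 and 11.4 CPM in the DPP libraries (log2 fold change -1.86 ± 0.18 (SE), adjusted p = 6.68e-05). EGR2 had 6.25 and 6.52 CPM in Mix, against 16.4 and 19.5 CPM in DPP (log2 fold change -1.49 ± 0.15 (SE), adjusted p = 8.32e-05). JUN, another AP-1 subunit, had 171 and 186 CPM in Mix, against 257 and 276 CPM in DPP (log2 fold change -0.58 ± 0.07 (SE), adjusted p = 0.000264). Against vehicle, the log2 fold changes in Mix were 0.58 (adjusted p = 0.0501) for FOSL1, 0.04 (adjusted p = 0.736) for JUN and 0.93 (adjusted p = 0.00202) for EGR2. ATF3, a stress-induced factor, had 1.54 and 2.23 CPM in Mix, against 4.23 and 6.03 CPM in DPP (log2 fold change -1.44 ± 0.29 (SE), adjusted p = 0.006), a call lost without Mix replicate 1 or DPP replicate 2. ATF3 and NR4A1 were named after their values were seen. NR4A1, an orphan nuclear receptor, was the 1 higher member (0.53, adjusted p = 0.0211) and lost its call without Mix replicate 2, DPP replicate 1 or DPP replicate 2.

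Several ligands of the EGF receptor family and feedback inhibitors of the MAP kinase pathway were lower, while the receptor gene itself was higher. Of 19 tested members 11 were lower in Mix and 1, EGFR, was higher, with a median of -0.41. HBEGF, a ligand of the receptor, had 4.68 and 5.00 CPM in the Mix libraries, against 18.0 and 16.6 CPM in the DPP libraries (log2 fold change -1.84 ± 0.14 (SE), adjusted p = 2.04e-05). DUSP4, a phosphatase that inactivates MAP kinases, had 2.51 and 2.60 CPM in Mix, against 8.87 and 11.6 CPM in DPP (adjusted p = 5.26e-05). SPRY4, a feedback inhibitor, had 7.25 and 9.05 CPM in Mix, against 16.7 and 21 CPM in DPP (log2 fold change -1.21 ± 0.14 (SE), adjusted p = 0.000211). For all 3 the Mix libraries were within or near the vehicle range, at 5.68 and 4.52 CPM for HBEGF. EGFR had 1125 and 1011 CPM in Mix, against 679 and 629 CPM in DPP (log2 fold change 0.71 ± 0.069 (SE), adjusted p = 6.68e-05), and the vehicle libraries, at 873 and 879 CPM, lay between the groups. NRG1, the ligand neuregulin of the ERBB receptors and named after its values were seen, was scarce, with 0.15 and 0.207 CPM in Mix, against 1.03 and 0.878 CPM in DPP (log2 fold change -2.42 ± 0.38 (SE), adjusted p = 0.00132). The lower count was 9 or 10 without any 1 library.

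The proliferation genes that were called were lower in Mix. Of 34 cell cycle and DNA replication genes 11 were lower and none was higher, with a median of -0.43, but only 4 were lower when any 1 of the 4 libraries was left out. The lower count was 8 with no filter or without vehicle, while the fit of the 4 libraries gave 15 lower and 1 higher. The summed CPM of the list was 697 and 1123 in the DProP libraries, and the part of this spread in the shared fit was not tested. CCND1, cyclin D1, had 34.1 and 40.4 CPM in the Mix libraries, against 83.6 and 80.4 CPM in the DPP libraries (log2 fold change -1.14 ± 0.11 (SE), adjusted p = 7.58e-05). PCNA, the replication clamp, had 21.8 and 22.2 CPM in Mix, against 29.9 and 29.9 CPM in DPP (log2 fold change -0.44 ± 0.093 (SE), adjusted p = 0.00729). AURKB, a mitotic kinase, was scarce, with 0.751 and 0.924 CPM in Mix, against 2.32 and 2.60 CPM in DPP (log2 fold change -1.56 ± 0.30 (SE), adjusted p = 0.00412). Among 33 replication-dependent histone genes 2 were lower (H4C8 and H3C4), with a median of -0.35, and 0 were called lower without Mix replicate 1 or DPP replicate 2. This count depends on the fit, since DESeq2 called 10 lower, the fit of the 4 libraries 15 lower and 2 higher, and the replicate block 9 lower. Histone genes have near-identical copies, so their counts are uncertain. Their transcripts mostly lack poly(A) tails, and any effect of this in libraries made by exome capture was not tested.

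The insulin-like growth factor axis, the list that holds HMGA2, had 8 of 15 tested members lower, HMGA2 among them, and 2 higher. Its median was -0.25, and 5 members were lower without Mix replicate 1. The ligand genes IGF1 and IGF2 had too few counts to be tested, at most 2 and 8 in any library. IGFBP3, a binding protein, had 7.87 and 9.45 CPM in Mix, against 22.6 and 20.2 CPM in DPP (log2 fold change -1.31 ± 0.17 (SE), adjusted p = 0.000582), and IRS1, an adaptor of the receptor, had 16.7 and 19.8 CPM in Mix, against 31.0 and 35 CPM in DPP (log2 fold change -0.86 ± 0.11 (SE), adjusted p = 0.000314). IGFBP4, another binding protein, was higher, with 17.6 and 15.1 CPM in Mix, against 6.00 and 5.91 CPM in DPP (log2 fold change 1.46 ± 0.15 (SE), adjusted p = 8.27e-05). IGFBP3 was named after its values were seen, and 1 member was higher without Mix replicate 1, DPP replicate 1 or DPP replicate 2.

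The p53 targets that were called were lower in Mix, mostly by small amounts. Of 25 tested members 16 were lower, 9 were not called and none was higher, with a median of -0.33, and 10 and 9 were lower without Mix replicate 1 and DPP replicate 2. CDKN1A, the cell cycle inhibitor p21, had 119 and 128 CPM in the Mix libraries, against 189 and 195 CPM in the DPP libraries (log2 fold change -0.63 ± 0.059 (SE), adjusted p = 5.79e-05). TNFRSF10B, a death receptor, had 75.1 and 81.0 CPM in Mix, against 110.4 and 118 CPM in DPP (log2 fold change -0.55 ± 0.068 (SE), adjusted p = 0.000314). BCL2L11, a pro-apoptotic protein, had 75.3 and 81.2 CPM in Mix, against 99.0 and 101 CPM in DPP (log2 fold change -0.36 ± 0.062 (SE), adjusted p = 0.00245). None of the 3 differed from vehicle in Mix at the threshold, with log2 fold changes of 0.15 (adjusted p = 0.0894) for CDKN1A, 0.096 (adjusted p = 0.353) for TNFRSF10B and -0.084 (adjusted p = 0.37) for BCL2L11.

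The integrated stress response, in which ATF4 raises amino acid synthesis genes, was more divided. Of 25 tested members 9 were lower in Mix and 3 higher, with a median of -0.19, and 5 were lower without DPP replicate 2. MTHFD2, a mitochondrial folate enzyme, had 13.1 and 12.4 CPM in Mix, against 23.1 and 30.1 CPM in DPP (log2 fold change -1.06 ± 0.11 (SE), adjusted p = 0.00013). ASNS, asparagine synthetase, had 13.1 and 12.6 CPM in Mix, against 19.6 and 21.2 CPM in DPP (log2 fold change -0.67 ± 0.087 (SE), adjusted p = 0.00041). VLDLR, a lipoprotein and reelin receptor, was higher, with 35.6 and 34.2 CPM in Mix, against 24.2 and 24.8 CPM in DPP (log2 fold change 0.51 ± 0.072 (SE), adjusted p = 0.000692). Of 18 chaperones of the endoplasmic reticulum 3 were lower and 1 higher, and the lower count was 0 without Mix replicate 1 and 1 without any other library. HSPA5, the main chaperone of that compartment, had 187 and 179 CPM in Mix, against 211 and 207 CPM in DPP (log2 fold change -0.19 ± 0.06 (SE), adjusted p = 0.0457), a call lost without any 1 library. Of 17 heat shock genes 4 were lower and 1 higher, led by DNAJB1 (-0.58 ± 0.078 (SE), adjusted p = 0.000545), and 1 was lower without Mix replicate 2 or DPP replicate 2.

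About as many antioxidant genes under the transcription factor NFE2L2 were lower in Mix as were not called. Of 21 tested members 10 were lower and 1 was higher, with a median of -0.42, and the lower count was 9 or 10 without any 1 library. The higher member, AKR1C3, an aldo-keto reductase, lost its call without any 1 library. SRXN1, which repairs oxidised peroxiredoxins, had 36.8 and 36.9 CPM in the Mix libraries, against 66.4 and 75.5 CPM in the DPP libraries (log2 fold change -0.95 ± 0.087 (SE), adjusted p = 5.31e-05). TXNRD1, thioredoxin reductase, had 201 and 193 CPM in Mix, against 289.7 and 306 CPM in DPP (log2 fold change -0.60 ± 0.059 (SE), adjusted p = 7.58e-05). ME1, malic enzyme, had 165 and 157 CPM in Mix, against 239 and 275 CPM in DPP (log2 fold change -0.68 ± 0.078 (SE), adjusted p = 0.000197). For SRXN1 and TXNRD1 the Mix libraries did not differ from vehicle at the threshold, whereas ME1 lay below vehicle in Mix, by -0.43 (adjusted p = 0.00299), and above it in DPP, by 0.24 (adjusted p = 0.0298). HMOX1, haem oxygenase, had 42.2 and 47.5 CPM in Mix, against 82.7 and 105 CPM in DPP (log2 fold change -1.07 ± 0.12 (SE), adjusted p = 0.000198), and of 13 iron handling genes 4 were lower and 2 higher, with 1 higher when any single library was left out. TFRC, the transferrin receptor, had 179 and 161 CPM in Mix, against 252 and 290.0 CPM in DPP (log2 fold change -0.67 ± 0.08 (SE), adjusted p = 0.000227), and SLC40A1, the iron exporter ferroportin, was higher (1.00 ± 0.17 (SE), adjusted p = 0.00252).

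Metallothioneins are small proteins that bind zinc and copper, and 3 of them were lower in Mix while MT3 was higher. Of 8 tested members of the metallothionein and zinc export list 4 were lower and 1 was higher, with a median of -0.32. MT2A had 81.0 and 105 CPM in the Mix libraries, against 189.6 and 237 CPM in the DPP libraries (log2 fold change -1.20 ± 0.18 (SE), adjusted p = 0.00385). MT1X had 13.3 and 15.7 CPM in Mix, against 30.0 and 31.7 CPM in DPP (log2 fold change -1.09 ± 0.12 (SE), adjusted p = 0.000121). MT1G had 0.45 and 0.749 CPM in Mix, against 2.06 and 2.18 CPM in DPP (log2 fold change -1.83 ± 0.39 (SE), adjusted p = 0.00742), and its call was lost without Mix replicate 1. The Mix libraries of MT2A overlapped the vehicle libraries, at 69.1 and 92.9 CPM. MT3, the brain form, had 0.819 and 0.94 CPM in Mix, against 0.237 and 0.424 CPM in DPP (log2 fold change 1.41 ± 0.36 (SE), adjusted p = 0.0195), a call lost without Mix replicate 1, Mix replicate 2 or DPP replicate 1. The MT1 and MT2 genes are near-identical copies on chromosome 16, so reads may be split between them and single values are uncertain.

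The promoters of MT2A, MT1X, TXNRD1 and ME1 are shown as examples from genes lower in Mix. That of IL11 is from the largest decrease among genes averaging at least 1 CPM. These examples all hold the searched letters, and some other lower genes do not. Each promoter is the 250 bases before the annotated start in RefSeq (build GRCh38.p14), 5′ to 3′ on the strand of the gene. The searched letters are in capitals. In the first 2 promoters capitals mark TGCNCNC (N for any base), a loose form of the metal response element core. In the next 2 they mark the core letters TGACNNNGC of the antioxidant response element, and in the last the AP-1 letters TGANTCA. All were searched on either strand.
MT2A (chr16:56608334-56608583, plus strand): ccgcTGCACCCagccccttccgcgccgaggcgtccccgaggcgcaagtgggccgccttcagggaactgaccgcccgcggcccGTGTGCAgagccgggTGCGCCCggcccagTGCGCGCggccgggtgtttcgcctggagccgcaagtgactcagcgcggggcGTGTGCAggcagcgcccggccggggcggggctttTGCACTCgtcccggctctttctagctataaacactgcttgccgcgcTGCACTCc
MT1X (chr16:56682220-56682469, plus strand): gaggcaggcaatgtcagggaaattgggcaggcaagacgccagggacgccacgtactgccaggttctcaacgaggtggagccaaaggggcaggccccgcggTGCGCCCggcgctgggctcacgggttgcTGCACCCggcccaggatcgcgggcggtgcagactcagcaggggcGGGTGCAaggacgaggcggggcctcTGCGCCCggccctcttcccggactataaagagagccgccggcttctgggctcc
TXNRD1 (chr12:104215529-104215778, plus strand): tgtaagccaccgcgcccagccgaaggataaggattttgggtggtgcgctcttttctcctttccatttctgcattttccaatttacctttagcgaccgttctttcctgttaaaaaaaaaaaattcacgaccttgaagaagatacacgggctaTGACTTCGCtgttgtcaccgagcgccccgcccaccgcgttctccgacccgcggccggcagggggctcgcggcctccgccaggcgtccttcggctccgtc
ME1 (chr6:83431052-83431301, minus strand): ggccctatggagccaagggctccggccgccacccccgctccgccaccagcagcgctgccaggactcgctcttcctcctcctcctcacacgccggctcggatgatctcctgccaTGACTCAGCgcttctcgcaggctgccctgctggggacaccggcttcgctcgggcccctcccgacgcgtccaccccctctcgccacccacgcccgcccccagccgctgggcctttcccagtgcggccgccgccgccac
IL11 (chr19:55370464-55370713, minus strand): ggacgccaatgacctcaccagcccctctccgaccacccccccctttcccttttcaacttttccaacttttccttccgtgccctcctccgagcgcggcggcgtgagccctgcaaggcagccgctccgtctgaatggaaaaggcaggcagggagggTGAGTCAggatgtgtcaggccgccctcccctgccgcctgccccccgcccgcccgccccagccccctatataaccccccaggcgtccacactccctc

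The MT2A promoter held 7 matches to the metal response letters and the MT1X promoter 4. At least 1 match to these loose letters was found in 55.9% of the 13434 promoters of tested genes, and 4 or more in 2.14%. Shares for a stricter form of the element were not counted. The antioxidant letters occurred once each in TXNRD1 and ME1, 99 and 137 bases before the start, against 11.8% of promoters of tested genes and 4 of 16 promoters of the NFE2L2 list (25%). SRXN1 and NQO1, also lower in Mix, held no match to these letters in this window, and their promoters are not shown. In ME1, and in a match of MT2A not marked here, the antioxidant letters overlap an AP-1 match. The AP-1 letters occurred once in IL11, 96 bases before the start, and in 4.24% of promoters of tested genes, 4.83% of those of genes lower in Mix and 4.18% of those of genes higher. None of the 22 immediate early gene promoters in the table held AP-1 letters in this window. A match is a run of letters and was not tested as a binding site.

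The called glycolysis and hypoxia genes were lower in Mix, with 1 exception. Of 29 tested members 15 were lower and 1 higher, with a median of -0.34, and from 12 to 14 were lower without any 1 library. LDHA, lactate dehydrogenase, had 30.2 and 35.9 CPM in Mix, against 56.7 and 66.4 CPM in DPP (log2 fold change -0.90 ± 0.10 (SE), adjusted p = 0.000222). ADM, the vasoactive peptide adrenomedullin, had 4.87 and 4.21 CPM in the Mix libraries, against 11.7 and 16.1 CPM in the DPP libraries (log2 fold change -1.61 ± 0.16 (SE), adjusted p = 6.68e-05). SLC2A1, the glucose transporter GLUT1, had 73.0 and 75.7 CPM in Mix, against 114 and 113 CPM in DPP (log2 fold change -0.61 ± 0.06 (SE), adjusted p = 7.38e-05). HK2, hexokinase, had 27.4 and 28.8 CPM in Mix, against 46.6 and 57.6 CPM in DPP (log2 fold change -0.89 ± 0.097 (SE), adjusted p = 0.000135), and P4HA1, a collagen hydroxylase, had 60.3 and 60.5 CPM in Mix, against 95.6 and 113 CPM in DPP (log2 fold change -0.79 ± 0.084 (SE), adjusted p = 0.000122). SLC2A1 did not differ from vehicle in Mix at the threshold, while ADM, HK2 and P4HA1 were above vehicle in both treatments, by 0.71 (adjusted p = 0.0103) in Mix and 2.33 (adjusted p = 3.16e-06) in DPP for ADM. The 1 higher member was ENO2, the neuronal enolase (0.34, adjusted p = 0.00415). LDHA and ENO2 were named after their values were seen.

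Secreted factors included several of the largest decreases. In the TGF-beta and BMP list 7 of 21 members were lower in Mix and 3 higher, with a median of -0.21, and 5 were higher without DPP replicate 1 or with DESeq2. TGFB1 had 56.7 and 64.3 CPM in Mix, against 83.2 and 93.4 CPM in DPP (log2 fold change -0.55 ± 0.079 (SE), adjusted p = 0.000795), whereas TGFB2, the other ligand of this pair, had 193 and 171 CPM in Mix, against 122 and 113 CPM in DPP (log2 fold change 0.63 ± 0.078 (SE), adjusted p = 0.000293). The 2 ligands were thus called in opposite directions. ID1 and ID3, BMP-induced proteins that block proneural helix-loop-helix factors, were lower and were named after their values were seen. ID1 had 1.88 and 3.20 CPM in Mix, against 6.57 and 5.83 CPM in DPP (log2 fold change -1.29 ± 0.25 (SE), adjusted p = 0.00526), and ID3 had 2.69 and 4.3 CPM in Mix, against 7.11 and 7.81 CPM in DPP (log2 fold change -1.10 ± 0.22 (SE), adjusted p = 0.00592), with calls that held in every alternative tried other than the 2-fold minimum. Of 20 cytokine and complement genes 3 were lower (1 without Mix replicate 1 or Mix replicate 2, and 2 without either DPP replicate) and 2 higher. IL11, a cytokine of the interleukin-6 family induced by TGF-beta, had 0.382 and 0.287 CPM in Mix, against 7.42 and 5.16 CPM in DPP (log2 fold change -4.22 ± 0.73 (SE), adjusted p = 0.00754), and its call was lost without Mix replicate 1 or 2, where a lone Mix library with few counts remained. LIF, of the same family, had 9.51 and 12.3 CPM in Mix, against 20.0 and 19.2 CPM in DPP (log2 fold change -0.85 ± 0.13 (SE), adjusted p = 0.000926), and the acute phase gene SERPINA3 was higher, with 1.98 and 1.53 CPM in Mix, against 0.405 and 0.212 CPM in DPP (log2 fold change 2.49 ± 0.34 (SE), adjusted p = 0.000534). Of 17 YAP and TEAD targets 4 were lower and 1 higher, and 2 were lower without Mix replicate 1 or DPP replicate 2 or in the fit of the 4 libraries.

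**Figure D4:**
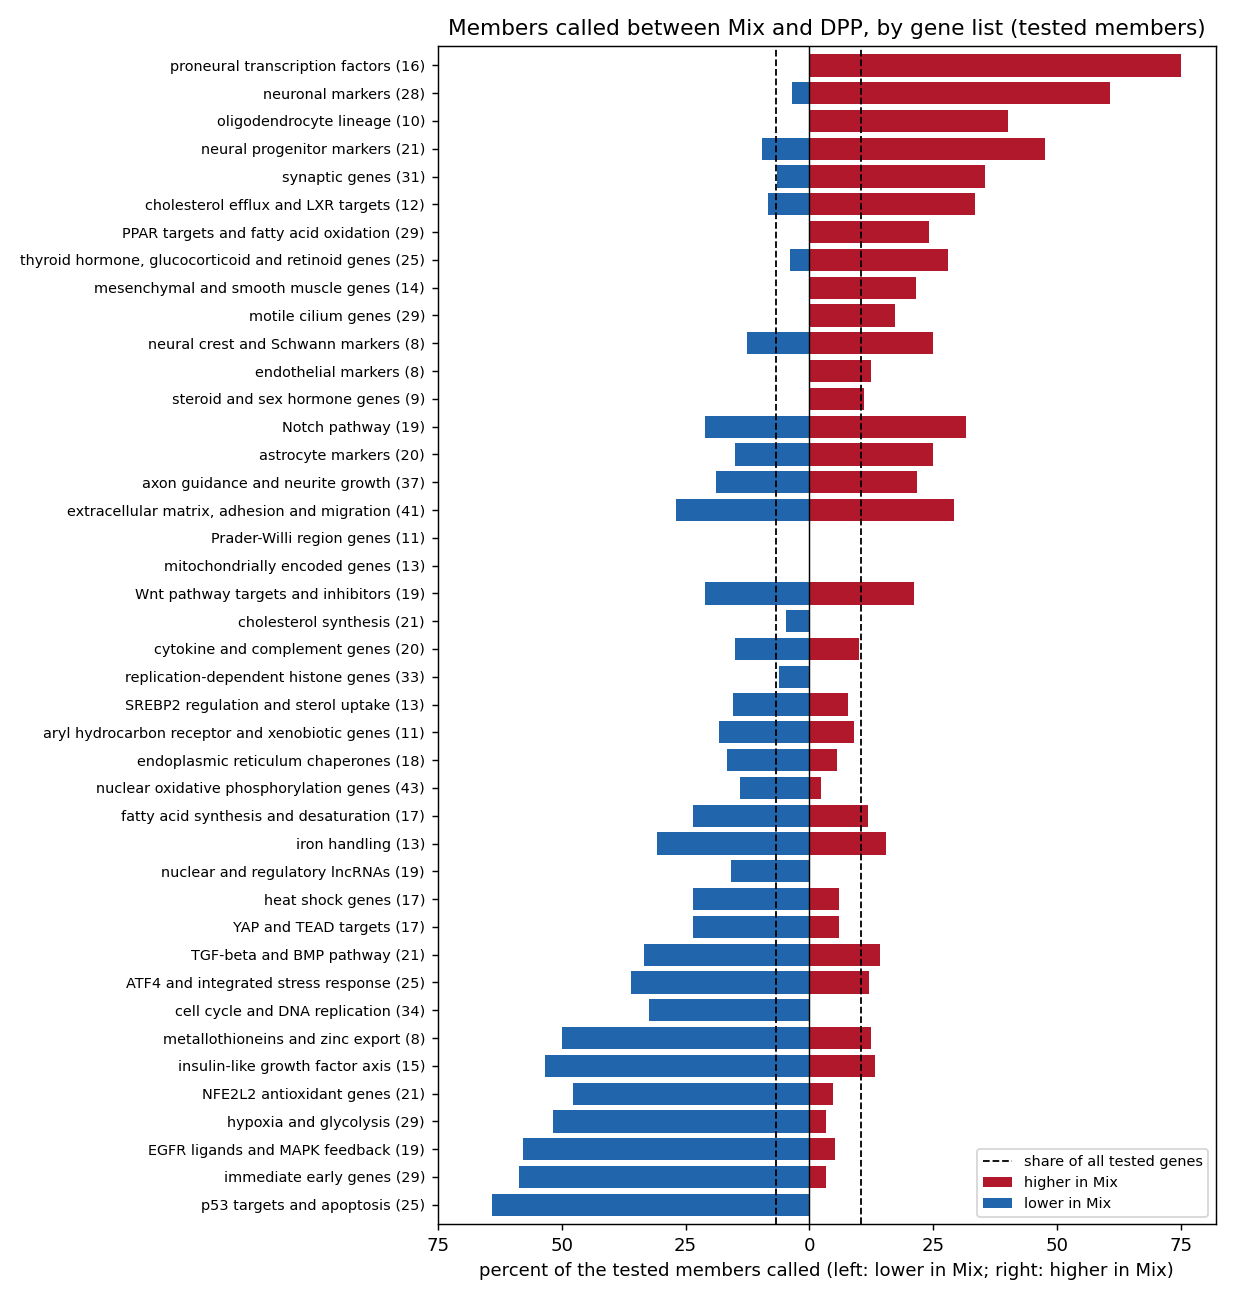
Percent of the tested members of each gene list called higher (right, red) and lower (left, blue) in Mix than in DPP, with the number of tested members in brackets and dashed lines at the shares of all tested genes (10.4% and 6.82%). Proneural factors (12 of 16 higher) stand at the top and p53 targets (16 of 25 lower) at the bottom, while mitochondrially encoded and Prader-Willi region genes have none called.

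The count of lower cholesterol genes depends on the tool and filter. Of 21 cholesterol synthesis genes 1 was lower and none higher in edgeR's test, with a median of -0.034. DESeq2 and the stricter filter each gave 5 lower, 6 passed an unadjusted p of 0.05 as lower, and 2 were higher without DPP replicate 1 and 2 lower without DPP replicate 2. INSIG1, a sterol sensor, had a log2 fold change of -0.074 (95% interval -0.20 to 0.049), and ABCA1, a cholesterol exporter, of -0.019 (95% interval -0.18 to 0.14). Both intervals exclude differences of 0.5 on the log2 scale. ABCG1, another exporter, was higher in Mix, with 6.17 and 6.39 CPM in Mix, against 2.51 and 1.33 CPM in DPP (log2 fold change 1.70 ± 0.27 (SE), adjusted p = 0.00209), 1 of 4 higher and 1 lower members among 12 efflux and LXR target genes. In that list 2 members were higher without Mix replicate 1, Mix replicate 2 or DPP replicate 2, and in the fit of the 4 libraries. In the SREBP2 and sterol uptake list of 13 genes, 1 was higher and 2 were lower (4 with DESeq2), with 0 lower when any 1 library was left out. The lower NPC1L1 had 0 counts in both Mix libraries.

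Fatty acid synthesis genes were called in both directions, with a higher share near that of all tested genes (10.4% higher and 6.82% lower). Of 17 synthesis and desaturation genes 4 were lower and 2 higher, with SCD5, a desaturase, lower (-0.44 ± 0.08 (SE), adjusted p = 0.00311) and ELOVL2, which elongates polyunsaturated fatty acids, higher (1.28 ± 0.19 (SE), adjusted p = 0.00119). Of 29 PPAR targets and fatty acid oxidation genes 7 were higher and none lower, with a median of 0.12, and 4 were higher without Mix replicate 2 or DPP replicate 2. One of them, FABP3, had 0 counts in both DPP libraries. CPT1C, the neuronal carnitine palmitoyltransferase, had 77.2 and 84.2 CPM in Mix, against 45.6 and 40.9 CPM in DPP (log2 fold change 0.90 ± 0.074 (SE), adjusted p = 2.63e-05). ACSL1, an acyl-CoA synthetase, had 12.3 and 12 CPM in Mix, against 6.68 and 6.69 CPM in DPP (log2 fold change 0.86 ± 0.13 (SE), adjusted p = 0.000983), and PLIN2, which coats lipid droplets, had 18.6 and 15.9 CPM in Mix, against 12.2 and 10.1 CPM in DPP (log2 fold change 0.63 ± 0.12 (SE), adjusted p = 0.00394).

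Thyroid hormone, glucocorticoid and retinoid genes were called higher more often than lower, as were all tested genes (10.4% higher and 6.82% lower). Of 25 thyroid hormone, glucocorticoid and retinoid genes 7 were higher in Mix and 1 lower, with a median of 0.23, and 4 were higher without DPP replicate 2, while 2 were lower without Mix replicate 1. CRABP1, a retinoic acid binding protein of young neurons, had 124 and 151 CPM in Mix, against 49.8 and 33.9 CPM in DPP (log2 fold change 1.71 ± 0.20 (SE), adjusted p = 0.00183). SGK1, a kinase that glucocorticoids induce, was the lower member, with 2.80 and 3.31 CPM in Mix, against 9.58 and 10.7 CPM in DPP (log2 fold change -1.73 ± 0.19 (SE), adjusted p = 0.000125), while TSC22D3, also induced by glucocorticoids, was higher (0.93 ± 0.16 (SE), adjusted p = 0.00259). Of 11 aryl hydrocarbon receptor and xenobiotic genes 2 were lower and 1 higher, with CYP1B1, a monooxygenase, at 1.34 and 1.75 CPM in Mix, against 4.19 and 3.95 CPM in DPP (log2 fold change -1.40 ± 0.18 (SE), adjusted p = 0.00041). Among 9 steroid and sex hormone genes only HSD17B4, a peroxisomal enzyme, was called (0.32 ± 0.057 (SE), adjusted p = 0.00296). That 1 higher gene of 9 is near the share of all tested genes called higher (10.4%).

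Motile cilium genes were called higher in 5 of 29 cases and lower in none, against 10.4% and 6.82% of all tested genes. Their median was 0.24, and 12 were higher without DPP replicate 1. HYDIN, a component of the ciliary central apparatus, had 113 and 121 CPM in Mix, against 78.3 and 72.1 CPM in DPP (log2 fold change 0.64 ± 0.065 (SE), adjusted p = 9.08e-05), and SPAG6, of the same apparatus, had 2.48 and 2.96 CPM in Mix, against 0.53 and 0.727 CPM in DPP (log2 fold change 2.11 ± 0.28 (SE), adjusted p = 0.000478).

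No mitochondrially encoded gene of 13 was called by edgeR, 0 passed an unadjusted p of 0.05, and DESeq2 and limma-voom also called 0. The median log2 fold change was 0.049, and 1 was called lower without DPP replicate 1. ND1, the member with the smallest p, had 63.1 and 64.5 CPM in Mix, against 65.3 and 87.7 CPM in DPP (log2 fold change -0.26, adjusted p = 0.185, 95% interval -0.54 to 0.017). Because the protocol captured exons with probes, unequal capture and unequal expression cannot be told apart for mitochondrial and noncoding transcripts. Of 43 nuclear genes for oxidative phosphorylation 6 were lower in Mix and 1 higher, with a median of -0.085, and the lower count was 3, 2 and 3 without Mix replicate 1, Mix replicate 2 and DPP replicate 1, 4 without DPP replicate 2 and 10 under the stricter filter. Among 11 Prader-Willi region genes none was called by edgeR, 1 higher and 1 lower passed an unadjusted p of 0.05, DESeq2 called 1 lower and limma-voom called 0. SNURF had a log2 fold change of -0.42 (adjusted p = 0.0562, 95% interval -0.72 to -0.12). Of 19 nuclear and regulatory lncRNAs 3 were lower, among them NEAT1 (-0.56 ± 0.11 (SE), adjusted p = 0.0061), a call lost without DPP replicate 2, where 1 member was lower, while 5 were lower with scaling by library size alone or the stricter filter.

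By gene class, 21.5% of 14905 protein-coding genes were called (1977 higher and 1221 lower), against 3.31% of 1875 lncRNA genes (25 higher and 37 lower). The median log2 fold change was 0.026 for protein-coding genes and -0.16 for lncRNA genes. The 264 snoRNA genes had 3 lower and none higher, and the 333 miRNA genes had 2 lower and 1 higher. The part of abundance and of exome capture in these shares was not tested.

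A few genes had 0 counts in both libraries of one group and at least 10 counts in every other library. There were 3 such genes for Mix and 3 for DPP, against 28 for vehicle, 1 for DProP and 0 for DEP. Genes at 0 in 1 library alone numbered 9 and 7 for the Mix libraries, 7 and 17 for DPP, and 28 and 45 for vehicle. BTBD18, a BTB domain gene, had 0 counts in both Mix libraries and from 20 to 32 counts in the other 8. The pseudogene AMYP1 also had 0 in both Mix libraries and 13 to 27 elsewhere. VSX1, a homeobox gene, had 27 and 23 counts in Mix and 0 in both DPP libraries. ADGRD2, an orphan adhesion receptor, had 25 and 19 counts in Mix and 0 in both DPP libraries. These 4 genes were chosen after their values were seen. Of the called genes, 23 had 0 counts in both Mix libraries and 34 in both DPP libraries, and their fitted fold changes depend on the prior count and are no bound.

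Set against vehicle, which both comparisons share, the list medians of Mix lay nearer to 0 than those of DPP for 37 of the 43 lists and farther from 0 for 6. The 6 were the YAP and TEAD list, with -0.27 in Mix and -0.089 in DPP, the TGF-beta list, with 0.13 in Mix and -0.043 in DPP, and the heat shock, chaperone, iron handling and nuclear oxidative phosphorylation lists. The lists overlap in members and the tally was not tested. The median of the 29 immediate early genes was 0.050 above vehicle in Mix and 0.58 in DPP, and that of the EGFR and MAPK list was -0.078 in Mix and 0.49 in DPP. The cell cycle list had -0.054 in Mix and 0.44 in DPP. The metallothionein list had 0.20 in Mix and 0.90 in DPP, and the NFE2L2 list -0.11 in Mix and 0.24 in DPP. Neuronal markers lay at -0.18 in Mix and -0.47 in DPP, and the mitochondrially encoded genes, with 1.63 and 1.69, lay far above vehicle in both treatments.

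**Figure D5:**
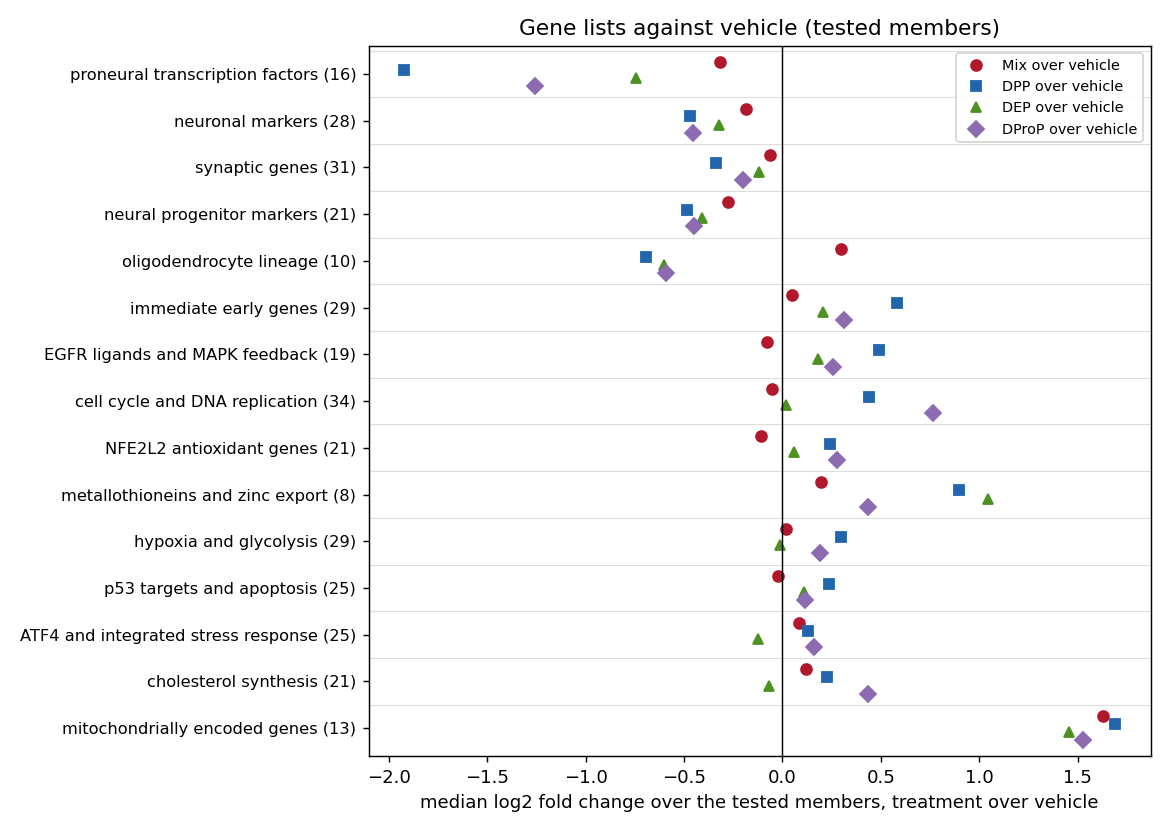
Median log2 fold change over vehicle (horizontal axis) of the tested members of 15 gene lists in Mix (circles), DPP (squares), DEP (triangles) and DProP (diamonds), with the number of tested members in brackets. For the proneural factors Mix lies at -0.32 and DPP at -1.92, for the immediate early genes at 0.050 and 0.58, and for the mitochondrially encoded genes all 4 treatments lie above 1.4.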

How the data were processed

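RNA of ReNcell VM neurospheres was sequenced after exome capture, 2 libraries per group, and the authors deposited a table of raw counts per gene. Per the submitters' processing notes, Trimmomatic 0.38, HISAT2 2.1.0, StringTie 2.1.3b, edgeR 4.0.9 and the GRCh38 build were used. No source used here states the strand setting of the counting, so antisense and overlapping genes cannot be told apart. From the deposited counts, 46427 genes were read, of which 17765 had no count, and filterByExpr kept 19465. Counts were scaled with TMM and fitted with edgeR 4.0.16 (robust quasi-likelihood, R 4.3.3) over all 10 libraries in 5 groups, leaving 5 residual degrees of freedom. Mix minus DPP was tested at a Benjamini-Hochberg adjusted p of 0.05, with no fold minimum. CPM values carry the TMM factors. A single gene compared on 2 against 2 libraries by an exact two-sided permutation test cannot go below p = 0.333, so single values have no such test. Of the gene IDs, 44698 matched RefSeq. The genes named were the 12 largest increases and 12 largest decreases of at least 1 CPM, up to 4 members of each of 43 lists with the smallest p (every called member where there were 5 or fewer), and fixed markers, and some of these are not reported here. The comparison and lists were chosen with earlier results of these data known. The fit was tested on simulated data. Alternatives used limma 3.58.1 (voom), DESeq2 1.42.0, other scalings, filters and library sets. Same-numbered libraries were not paired by the labels. Depth was 57222381 to 72973100 counts per library. The replicate pairs differed by more than sampling noise (chi-square per degree of freedom from 11.3 to 21.7), so no library was a duplicate.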

Additional observations from a re-analysis of the deposited data

Results flagged for a closer look

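Genes were kept here if they had a symbol, were called between Mix and DPP and averaged at least 1 CPM over those libraries. The libraries of Mix and DPP also had to be without overlap. Of these genes, 54 lay on opposite sides of the vehicle libraries, which both comparisons share, with both differences from vehicle past the threshold in edgeR's test. All 54 differ between Mix and DPP by this rule, with 41 higher in Mix than in DPP and 13 lower. The 8 of them that are among the named genes are given below. The direct test of Mix against DPP gave the log2 fold changes that follow.

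HMGA2 differed by -3.51, with -1.11 over vehicle in Mix and 2.40 in DPP. NEFL differed by -1.70, with -0.88 in Mix and 0.82 in DPP. ME1 differed by -0.68, with -0.43 in Mix and 0.24 in DPP. SERPING1 differed by 2.36, with 1.01 in Mix and -1.36 in DPP. NKD1, an inhibitor of Wnt signalling, differed by 1.14, with 0.58 in Mix and -0.55 in DPP. EGFR differed by 0.71, with 0.29 in Mix and -0.42 in DPP. ROBO2, an axon guidance receptor, differed by 0.54, with 0.31 in Mix and -0.23 in DPP, and NLGN1, a synaptic adhesion protein, by 0.50, with 0.26 in Mix and -0.24 in DPP.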

How the results depend on the processing

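The 3359 calls (2032 higher, 1327 lower) came to between 2614 and 3838 under other scalings, filters, tools and fits, all within 1.5 times. Scaling by library size alone gave 1851 higher and 1495 lower genes, and the stricter filter 2019 and 1716. A 2-fold minimum left 46 (30 higher and 16 lower). Leaving out 1 library gave 1541 to 2743 calls, 961 to 1712 higher and 580 to 1031 lower, with the lowest counts without DPP replicate 2. Fewer libraries also mean fewer degrees of freedom.

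With the replicate number as a block, 3147 genes were called (1890 higher, 1257 lower). The deviations of same-numbered Mix and DPP libraries had a correlation of -0.13, and the crossed pairing, added after seeing the data, gave 3690 calls (2211 and 1479).

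Of the uncalled markers, several changed sign. VIM was -0.0040 by library size and -0.0067 under the stricter filter. Leaving out 1 library gave a range of -0.080 to 0.097 for VIM (with -0.029 without DPP replicate 2), -0.24 to 0.093 for CD68, -0.19 to 0.069 for GFAP and -0.073 to 0.033 for ABCA1 (with 0.017 without DPP replicate 2). The cause was not tested. Genes at 0 in 1 group moved a list median by at most 0.011 when set to their bound of 3 counts. Depth limits the scarcest genes, such as OLIG2 and SHANK2.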
